A study of Mus musculus with 12 samples.

Results

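The mRNA levels of 10 genes for sensing nucleic acids inside the cell were examined in mouse bone marrow mesenchymal stem cells (MSCs). The genes were chosen by name, with earlier results of these data known: Ddx58, Ifih1, Dhx58, Mavs, Eif2ak2, Zbp1, Trim25, Tlr3, Mb21d1 and Tmem173. Shares of all genes given beside their counts are therefore a description and no test of the set. Of the 55401 genes in the expression table, 8 members were found by symbol and 2 through an older symbol, Mb21d1 as Cgas and Tmem173 as Sting1. The MSCs came from C57BL/6 mice and were bought from a supplier. The untreated group received no cytokine. The TGF-β1 group received transforming growth factor beta 1 at 5 ng/mL, which drives MSCs towards myofibroblasts. The last 2 groups received the same TGF-β1 together with medium conditioned by myeloid-derived suppressor cells (MDSCs), either monocytic (M-MDSCs, CD11b+Ly6G-Ly6C high) or granulocytic (G-MDSCs, CD11b+Ly6G+Ly6C low). Those MDSCs were grown from bone marrow with GM-CSF and IL-6 and then sorted, and the study gives a day of treatment. Each of the 4 groups has 3 poly(A) RNA libraries, and no source used here says whether replicates were separate cultures, so p-values measure the spread between these libraries, which may be technical. No group received conditioned medium without TGF-β1 or unconditioned MDSC medium, so the supernatant groups are read against TGF-β1 alone.

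Cells recognise foreign or misplaced nucleic acids through a small set of receptors. RIG-I (the product of Ddx58), MDA5 (Ifih1) and LGP2 (Dhx58) are RNA helicases of the cytosol, and the first 2 signal through the mitochondrial adaptor MAVS, with TRIM25 acting as a ubiquitin ligase for RIG-I. PKR (Eif2ak2) binds double-stranded RNA and halts translation, ZBP1 binds left-handed Z-form nucleic acids and can start necroptosis, and TLR3 binds double-stranded RNA in endosomes rather than in the cytosol. DNA in the cytosol is bound by cGAS (Cgas), whose cyclic dinucleotide product activates STING (Sting1). These pathways lead to the kinase TBK1, the factors IRF3 and IRF7 and type I interferon, and many of the sensors are themselves interferon-inducible.

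Because several members are known targets of the interferon-activated factor ISGF3, the start regions of the members were searched for its binding motif, the interferon-stimulated response element (ISRE), and for the gamma-activated site (GAS) bound by STAT dimers. RefSeq windows on GRCm38.p6, from 250 bases before to 50 after the annotated start, were held for 7 members (Ddx58, Ifih1, Mavs, Eif2ak2, Trim25, Tlr3 and Cgas). The ISRE core was searched as GAAANNGAAA, or TTTCNNTTTC on the other strand, and was found in the windows of 3 members. Of all 32817 windows in the same table, 3.43% held it. The 30 bases around each match are shown on the gene's own strand, with the core in capitals, because these 3 genes are among the members that rose with both supernatants. They lie at chr4:40239804-40239833 for Ddx58, chr2:62646206-62646235 for Ifih1 and chr17:78882535-78882564 for Eif2ak2, all on the minus strand.
Ddx58: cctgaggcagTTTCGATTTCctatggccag
Ifih1: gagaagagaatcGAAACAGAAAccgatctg
Eif2ak2: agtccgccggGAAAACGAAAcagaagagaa
Counted from the RefSeq start as base 1, the core covered bases 3 to 12 in Ddx58, 33 to 42 in Ifih1 and 19 to 28 in Eif2ak2. In the deposited table's own gene bounds, the core lies inside the gene for Ddx58 and Eif2ak2 and 3 bases before its 5′ end for Ifih1.

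The GAS element was searched as TTCNNNGAA, which reads the same on both strands, and was found only in the Eif2ak2 window, at bases -178 to -170. It was held by 8.29% of all windows. The motifs do not overlap each other there. The 250 bases upstream of the RefSeq start are shown for the members with a window that rose with both supernatants, in the order of their change, with the GAS match in capitals. They are chr4:40239826-40240075 for Ddx58, chr8:45410381-45410630 for Tlr3, chr17:78882573-78882822 for Eif2ak2 and chr2:62646256-62646505 for Ifih1, all on the minus strand. In the deposited table's own gene bounds, the stretch shown for Tlr3 lies inside the gene, whose 5′ end is at 45411080. It is therefore upstream only of the RefSeq start. A match is a description of letters in this window, and binding was not measured.
Ddx58: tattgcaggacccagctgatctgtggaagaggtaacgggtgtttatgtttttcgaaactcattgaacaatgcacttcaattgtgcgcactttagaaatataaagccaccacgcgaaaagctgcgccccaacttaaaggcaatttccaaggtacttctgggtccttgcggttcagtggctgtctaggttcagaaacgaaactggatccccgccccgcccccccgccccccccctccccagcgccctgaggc
Tlr3: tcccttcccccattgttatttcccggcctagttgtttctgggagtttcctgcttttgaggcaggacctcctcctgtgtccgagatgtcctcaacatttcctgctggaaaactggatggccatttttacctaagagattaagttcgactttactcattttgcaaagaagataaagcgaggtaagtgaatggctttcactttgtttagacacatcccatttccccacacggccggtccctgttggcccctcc
Eif2ak2: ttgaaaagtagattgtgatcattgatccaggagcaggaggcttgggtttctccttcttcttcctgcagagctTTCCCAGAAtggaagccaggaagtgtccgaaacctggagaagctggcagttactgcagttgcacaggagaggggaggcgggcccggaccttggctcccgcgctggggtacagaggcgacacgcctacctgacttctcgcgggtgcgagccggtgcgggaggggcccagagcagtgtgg
Ifih1: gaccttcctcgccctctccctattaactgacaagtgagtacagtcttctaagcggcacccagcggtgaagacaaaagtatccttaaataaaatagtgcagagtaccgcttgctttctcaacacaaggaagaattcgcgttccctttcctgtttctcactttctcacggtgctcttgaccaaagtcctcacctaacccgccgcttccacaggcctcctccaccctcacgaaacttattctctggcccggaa

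The libraries held 73977669 to 84565450 counts. All 10 members were among the 12016 genes tested, those that reached 1 FPKM (fragments per kilobase of exon, scaled to library depth) in 3 or more libraries. Dhx58, Zbp1 and Tlr3 were under 1 FPKM in every TGF-β1 library and above it in the other 9, so they passed through 3 groups. The 8 MSC markers summed to 500 to 598 FPKM across the 12 libraries, but not each was stable: Ly6a (Sca-1) read 241 to 251 FPKM untreated, at most 18.8 with TGF-β1 and 63.3 to 103 with the supernatants, while Itgb1 read 247 to 263 untreated and 370 to 394 in the other groups. The markers absent from MSCs, Kit and Pecam1, summed to at most 0.218. All supernatant libraries also held kidney transcripts, and 4 of the 6 held abundant liver transcripts, as given beside the results they touch. Bulk RNA cannot tell apart fewer cells carrying a transcript and less of it per cell.

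**Figure D1:**
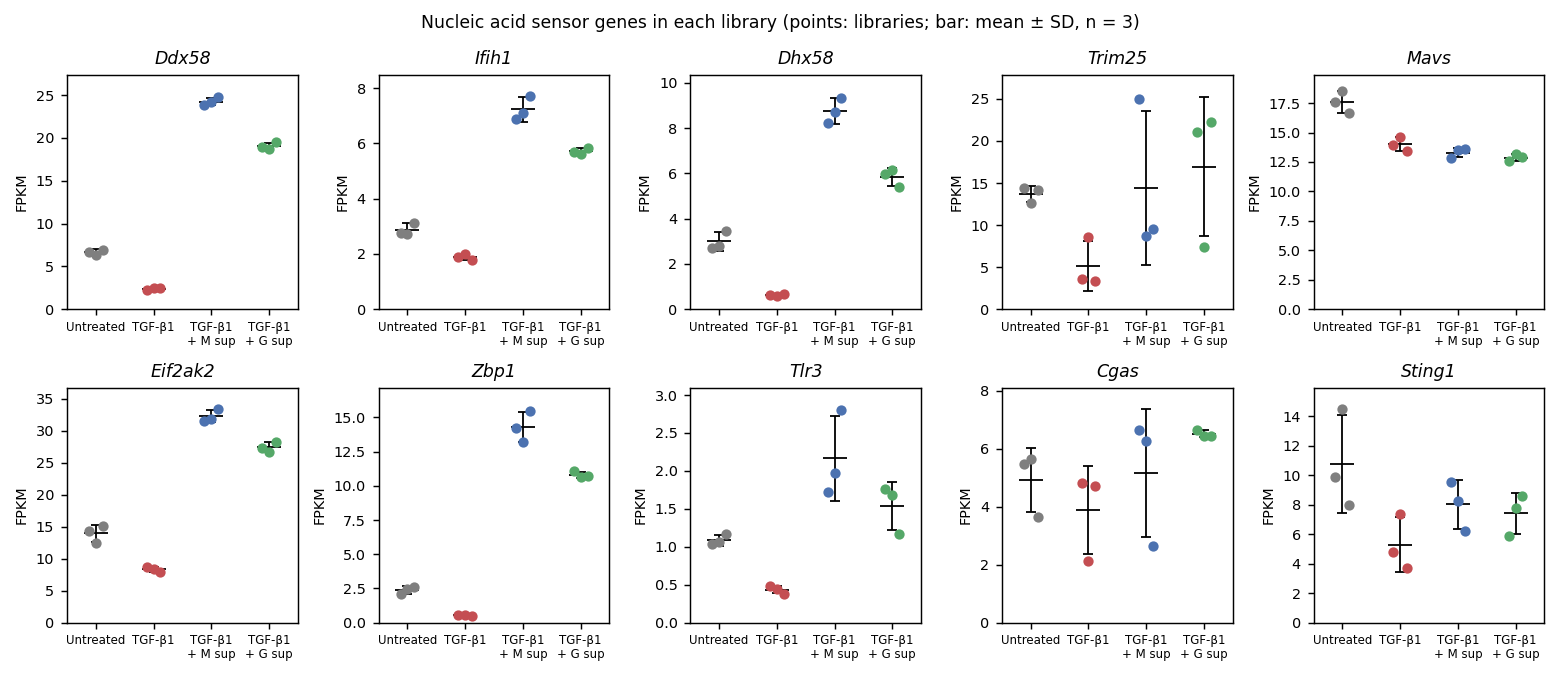
FPKM (linear axes from 0) of the 10 genes in each library, with the group mean and SD as bars, n = 3 libraries a group. Ddx58, Ifih1, Dhx58, Eif2ak2, Zbp1 and Tlr3 were lowest in the 3 TGF-β1 libraries and above them in all 6 supernatant libraries, whereas Trim25, Cgas and Sting1 varied widely within groups.

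In untreated MSCs all 10 genes were detected. Per length, Mavs was the highest at 17.6 ± 0.916 FPKM (SD, n = 3), followed by Eif2ak2 at 13.9 ± 1.31, Trim25 at 13.7 ± 0.982 and Sting1 at 10.8 ± 3.35. Those at the lower end were Tlr3 at 1.08 ± 0.0688, Zbp1 at 2.37 ± 0.275, Ifih1 at 2.87 ± 0.235 and Dhx58 at 2.99 ± 0.417. The order of Eif2ak2 and Trim25, and of Ifih1 and Dhx58, was within the spread of the libraries. TGF-β1 alone placed Mavs, at 14.0 ± 0.608, above every other member, and Dhx58, Zbp1 and Tlr3 fell to between 0.434 and 0.630 on average. With either supernatant Eif2ak2 and Ddx58 had the 2 highest means, and Tlr3 remained the lowest of the 10.

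TGF-β1 lowered most of the sensors. Against untreated MSCs, 8 of the 10 were lower and 0 were higher at an adjusted p under 0.05 in edgeR's quasi-likelihood test with Benjamini-Hochberg adjustment. Of all genes tested, 17.9% were lower and 16.1% were higher. The count of members that were higher was also 0 at an unadjusted p under 0.05, with DESeq2 and with limma. The libraries of the 2 groups did not overlap for 9 members, all lower with TGF-β1, as for 30.0% of all genes. The median log2 fold change of the members was -1.11, beside 0.00048 for all genes.

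Among the RNA helicases, Dhx58 changed the most. It read 2.72, 2.79 and 3.47 FPKM in the 3 untreated libraries and 0.639, 0.598 and 0.654 with TGF-β1. Every TGF-β1 library was far below every untreated one, a log2 fold change of -2.18 ± 0.105 (SE), or 4.53-fold lower (adjusted p = 7.95e-08). LGP2, its product, lacks the signalling domains of the other two helicases and modulates them. Ddx58 went from 6.68, 6.32 and 6.96 to 2.26, 2.47 and 2.42 FPKM, a log2 fold change of -1.42 ± 0.0483 (adjusted p = 5.45e-09). Ifih1, the sensor of long double-stranded RNA, read 2.75, 2.72 and 3.14 untreated and 1.88, 1.99 and 1.80 with TGF-β1, a smaller change of -0.54 ± 0.0686 (adjusted p = 0.000112). Neither gene overlapped between the groups.

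Zbp1 fell to a similar extent as Dhx58, from 2.08, 2.43 and 2.62 to 0.584, 0.517 and 0.502 FPKM (log2 fold change -2.09 ± 0.0999, adjusted p = 7.49e-08). Tlr3 went from 1.03, 1.06 and 1.16 to 0.480, 0.441 and 0.382 FPKM (-1.26 ± 0.201, adjusted p = 0.000614). Eif2ak2 went from 14.4, 12.5 and 15.0 to 8.60, 8.44 and 7.86 FPKM (-0.69 ± 0.065, adjusted p = 1.22e-05). In each of the 3 the TGF-β1 libraries sat below all untreated ones. The adaptor gene Mavs changed the least of those called, from 17.6, 18.5 and 16.7 to 13.9, 14.7 and 13.4 FPKM (-0.27 ± 0.052, adjusted p = 0.00212).

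Sting1, which carries the signal from cGAS, read 9.89, 14.5 and 7.97 FPKM untreated and 4.78, 7.35 and 3.70 with TGF-β1. The groups did not overlap, but the libraries within each varied by up to 1.98-fold. Its log2 fold change was -0.97 ± 0.29 (adjusted p = 0.0245). The call was lost without untreated replicate 2 (adjusted p = 0.0969), TGF-β1 replicate 1 (0.0786) or replicate 3 (0.0796), and when only the 2 groups were fitted (0.061). Trim25 read 14.4, 12.6 and 14.2 FPKM untreated and 3.55, 8.58 and 3.36 with TGF-β1, so that 1 treated library lay well above the other two. Its change of -1.35 ± 0.528 did not pass (adjusted p = 0.075), and it passed without TGF-β1 replicate 2 (0.0261). Cgas overlapped between the groups, at 5.47, 5.65 and 3.65 against 4.82, 2.14 and 4.73 FPKM (-0.28 ± 0.364, adjusted p = 0.609, 95% interval -1.09 to 0.53).

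**Figure D2:**
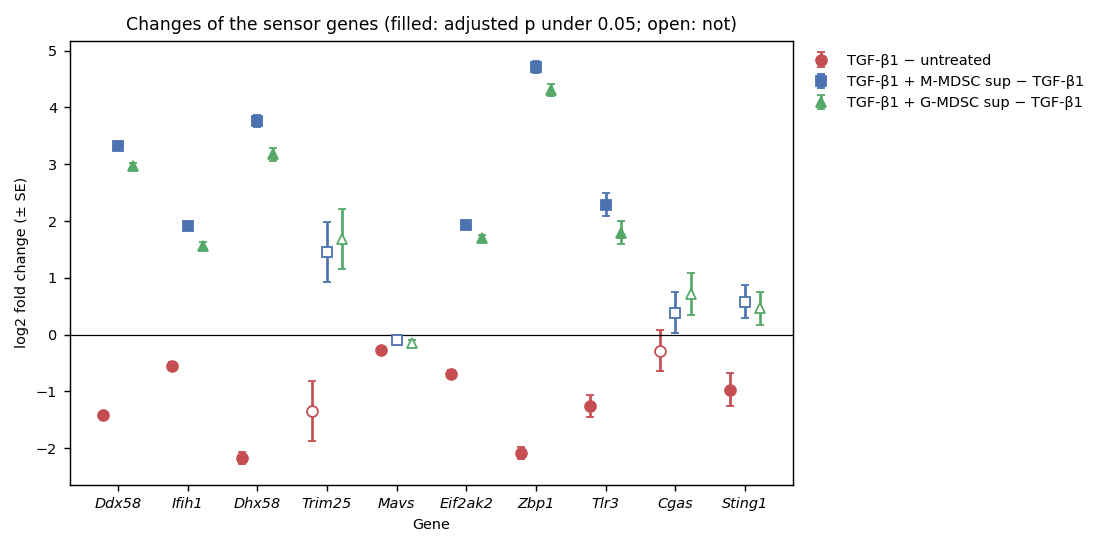
Log2 fold changes with their SE from the edgeR fit for the 10 genes, for TGF-β1 against untreated MSCs (circles) and for each supernatant against TGF-β1 alone (squares, M-MDSC; triangles, G-MDSC). Filled symbols passed an adjusted p under 0.05: 8 genes were lower with TGF-β1, and 6 were higher with each supernatant, by 1.57 (Ifih1, G-MDSC) to 4.71 (Zbp1, M-MDSC).

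With the M-MDSC supernatant, 6 of the 10 sensors were higher than with TGF-β1 alone: Zbp1, Dhx58, Ddx58, Tlr3, Eif2ak2 and Ifih1. The background was 2.83% of all genes higher and 1.95% lower. No member was lower (0 by edgeR, also at an unadjusted p under 0.05, and 0 by DESeq2 and by limma). The members' median log2 fold change was 1.92, beside -0.013 for all genes, and 7 members did not overlap between the groups, all higher, as for 13.4% of all genes. With the G-MDSC supernatant 6 sensors were again higher, the identical 6 by name, against a background of 3.10% higher and 2.46% lower. There, 0 members were lower by edgeR, DESeq2 and limma, and 1, Mavs, at an unadjusted p under 0.05. The members' median was 1.69, beside -0.014 for all genes. The libraries did not overlap for 7 members that were higher and 1 that was lower, as for 13.2% and 9.55% of all genes. Both comparisons use the same 3 TGF-β1 libraries.

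Zbp1 rose the most. From 0.584, 0.517 and 0.502 FPKM with TGF-β1 alone it reached 14.3, 13.2 and 15.4 with the M-MDSC supernatant, a log2 fold change of 4.71 ± 0.109, or 26.2-fold (adjusted p = 7.95e-10). In the G-MDSC supernatant it read 11.1, 10.7 and 10.7, a change of 4.30 ± 0.107, or 19.7-fold (adjusted p = 2.25e-09). All 6 supernatant libraries were more than 4 times above any untreated library.

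Dhx58 came next. It read 8.21, 8.70 and 9.34 FPKM with the M-MDSC supernatant (log2 fold change 3.76 ± 0.111, adjusted p = 5.82e-09) and 5.98, 6.14 and 5.41 with the G-MDSC supernatant (3.17 ± 0.109, adjusted p = 2.61e-08). Ddx58 read 23.9, 24.1 and 24.7 FPKM (3.32 ± 0.0516, adjusted p = 1.02e-10) and 19.0, 18.7 and 19.5 FPKM (2.97 ± 0.0508, adjusted p = 2.78e-10) in the same order. In both genes the 3 groups that held TGF-β1 did not overlap one another. Ifih1 changed less than its 2 relatives, reaching 6.87, 7.09 and 7.71 FPKM with the M-MDSC supernatant (1.91 ± 0.0704, adjusted p = 2.25e-08) and 5.68, 5.62 and 5.83 with the G-MDSC supernatant (1.57 ± 0.0697, adjusted p = 1.39e-07).

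Eif2ak2 read 31.5, 31.8 and 33.3 FPKM with the M-MDSC supernatant (1.93 ± 0.0668, adjusted p = 1.79e-08) and 27.3, 26.7 and 28.2 with the G-MDSC supernatant (1.70 ± 0.0663, adjusted p = 6.99e-08). Gm6548, a processed pseudogene just 3′ of Eif2ak2 on the same strand, moved with it, at 5.93 to 6.66 FPKM with TGF-β1, 25.3 to 26.6 with the M-MDSC supernatant and 21.5 to 23.6 with the G-MDSC supernatant, and whether reads are shared between them was not tested. Tlr3, the endosomal sensor, read 1.72, 1.98 and 2.80 FPKM with the M-MDSC supernatant (2.29 ± 0.206, adjusted p = 5.33e-05) and 1.76, 1.69 and 1.17 with the G-MDSC supernatant (1.79 ± 0.203, adjusted p = 0.000363). Its supernatant libraries were all above the TGF-β1 ones, with a wider spread than the other 5.

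The other 4 members did not pass in either comparison. Mavs, through which RIG-I and MDA5 signal, was at 12.9, 13.5 and 13.6 FPKM with the M-MDSC supernatant and 12.5, 13.2 and 12.9 with the G-MDSC supernatant, beside 13.4 to 14.7 with TGF-β1 alone. Its log2 fold changes were -0.10 (95% interval -0.21 to 0.019) and -0.15 (-0.26 to -0.033, adjusted p = 0.156), both far smaller in size than those of the receptors. Trim25 read 25.0, 8.72 and 9.59 FPKM with the M-MDSC supernatant and 21.1, 7.45 and 22.3 with the G-MDSC supernatant. Its log2 fold changes were 1.46 ± 0.53 (adjusted p = 0.185) and 1.69 ± 0.533 (adjusted p = 0.112). The first was below that of every member that passed, and the second was above the 1.57 of Ifih1, which passed. The libraries of each supernatant group were split into high and low ones. With single libraries left out, the changes ran from 0.80 to 2.04 and from 1.44 to 2.27.

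The DNA-sensing pair was also variable. Cgas read 6.64, 6.26 and 2.64 FPKM with the M-MDSC supernatant (0.39 ± 0.364, adjusted p = 0.663) and 6.66, 6.46 and 6.44 with the G-MDSC supernatant (0.72 ± 0.365, adjusted p = 0.36). Sting1 read 9.57, 8.29 and 6.23 FPKM (0.58 ± 0.289, adjusted p = 0.353) and 5.90, 7.78 and 8.62 FPKM (0.47 ± 0.289, adjusted p = 0.481). Sting1 overlapped the TGF-β1 libraries in both comparisons, and Cgas did so with the M-MDSC supernatant. The pooled within-group SD of log2 CPM (counts per library scaled to a common total) was 0.718 for Trim25, 0.516 for Cgas and 0.386 for Sting1, above those of 97.8%, 95.8% and 92.9% of the genes tested. For Ddx58 it was 0.052, above 9.61% of genes. The libraries that stood apart differed from gene to gene, for example TGF-β1 replicate 2 being high for Trim25 and low for Cgas, and the cause was not tested.

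The libraries of both supernatant groups also held transcripts of other tissues. The 12 kidney epithelium markers summed to 0.056 to 0.201 FPKM in the 6 libraries without supernatant, 34.6 to 109 with the M-MDSC and 72.3 to 84.5 with the G-MDSC supernatant. All 12 were above 0 in every supernatant library, and 2 to 7 of them reached 1 FPKM. The 6 hepatocyte markers summed to at most 0.027 FPKM without supernatant, 55.1 to 61.3 with the G-MDSC supernatant, and 0.110, 0.189 and 52.1 in the 3 M-MDSC libraries, of which only replicate 3 held Alb, at 31.6 FPKM. The 16 myeloid markers summed to 28.9 to 30.9 FPKM untreated, 15.7 to 17.2 with TGF-β1, 23.1 to 28.9 with the M-MDSC and 29.5 to 31.0 with the G-MDSC supernatant. Mpo and Elane, which define granulocyte precursors, were at 0 in all 12 libraries, and Ptprc, the pan-leukocyte CD45 gene, reached at most 0.016 FPKM. Cd14, at 12.4 to 23.6 FPKM, made up most of the myeloid sum in every library. Of the markers that name the MDSC gates, Ly6g was at 1.74 to 1.89 FPKM untreated, at most 0.093 with TGF-β1 and at most 0.199 with the supernatants, and Ly6c2 was at 1.59 to 1.83, at most 0.083 and 0.082 to 0.308. Some other myeloid markers were detected more with the supernatants than in either group without them. Lyz2, the lysozyme gene, was at most 0.191 FPKM in the 6 libraries without supernatant and 0.651 to 2.29 in the 6 with it. Cybb went from 0 in those without to 0.011 to 0.064, and S100a9 from 0 to as much as 3.40 FPKM, with 0 in G-MDSC replicates 1 and 2. The part of these transcripts in the sensor results was not tested.

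**Figure D3:**
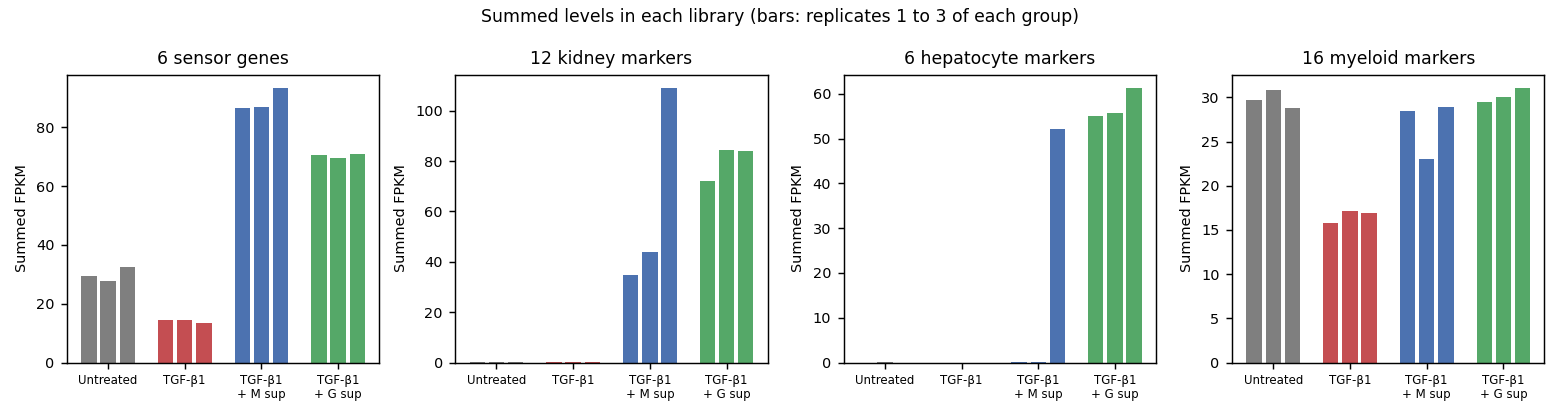
Summed FPKM in each library (bars, replicates 1 to 3 of each group, linear axes from 0) of the 6 sensors that rose with both supernatants, chosen after their values were seen, and of the kidney, hepatocyte and myeloid marker lists. The sensor sums were 86.5, 87.0 and 93.3 with the M-MDSC supernatant, where hepatocyte markers summed to 0.110, 0.189 and 52.1, and 69.5 to 70.8 with the G-MDSC supernatant.

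The hepatocyte markers summed to 0.110 and 0.189 FPKM and the kidney markers to 34.6 and 44.0 FPKM in M-MDSC replicates 1 and 2. Without M-MDSC replicate 3, the 6 sensors were called higher than with TGF-β1 alone, with log2 fold changes of 3.31 for Ddx58, 1.86 for Ifih1, 3.71 for Dhx58, 1.91 for Eif2ak2, 4.65 for Zbp1 and 2.06 for Tlr3. The kidney transcripts were present in all 6 supernatant libraries, and the hepatocyte markers summed to 55.1 to 61.3 FPKM in the G-MDSC libraries. The part of kidney or liver transcripts in these values was not tested, and leaving out 1 library does not test it.

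To ask whether the 2 supernatants differ, the M-MDSC group was set against the G-MDSC group directly. Of the 10 sensors, 1 was higher with the M-MDSC supernatant and 0 were lower, beside 0.0999% higher and 0.025% lower among all genes, which are 12 and 3 genes. At an unadjusted p under 0.05, 6 members were higher and 0 lower. Of the other tools, DESeq2 called 4 higher and 0 lower, and limma 2 and 0. The gene called was Ddx58, at 23.9 to 24.7 FPKM against 18.7 to 19.5, a log2 fold change of 0.35 ± 0.047 (adjusted p = 0.0204). That call was lost without G-MDSC replicate 1 (adjusted p = 0.131) or 2 (0.113) and without M-MDSC replicate 1 (0.058) or 2 (0.0727), and remained without M-MDSC replicate 3 (0.0364).

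The direction was shared by the other 5 sensors that rose, though none of them passed. Dhx58 differed by 0.59 ± 0.0983 (adjusted p = 0.0739), Zbp1 by 0.41 ± 0.092 (0.209), Ifih1 by 0.34 ± 0.0678 (0.132), Eif2ak2 by 0.24 ± 0.0644 (0.361) and Tlr3 by 0.49 ± 0.195 (0.735). In 5 of the 6, all but Tlr3, every M-MDSC library was above every G-MDSC library, as for 5.97% of all genes. Mavs differed by 0.051 (95% interval -0.064 to 0.17). Trim25, Cgas and Sting1 overlapped, with differences of -0.23 (-1.38 to 0.92), -0.33 (-1.13 to 0.48) and 0.12 (-0.52 to 0.75), intervals too wide to place them.

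Set against untreated MSCs, the sensors that rose did not return to the starting level but went past it. With the M-MDSC supernatant 6 members were higher and 1, Mavs, was lower, beside 16.4% and 18.9% of all genes. With the G-MDSC supernatant 5 were higher and 1, again Mavs, was lower, beside 16.4% and 18.4%. Zbp1 stood 6.16-fold above the untreated level with the M-MDSC supernatant and 4.65-fold with the G-MDSC supernatant. Ddx58 stood 3.73-fold and 2.92-fold above it, Dhx58 2.99-fold and 1.99-fold, Ifih1 2.58-fold and 2.04-fold, and Eif2ak2 2.37-fold and 2.01-fold. Tlr3 was 2.05-fold higher with the M-MDSC supernatant (adjusted p = 0.00195), and its 1.45-fold difference with the G-MDSC supernatant did not pass (adjusted p = 0.0559). Mavs was 1.29-fold lower (adjusted p = 0.000255) and 1.34-fold lower (adjusted p = 0.000105). Trim25, Cgas and Sting1 passed in neither comparison, and Sting1 had log2 differences of -0.39 ± 0.288 and -0.51 ± 0.288.

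Around the sensors, 100 other genes of the same pathways in 6 lists were followed, of which 87 were tested. The lists, too, were chosen with earlier results of these data known. Against TGF-β1 alone, 13 were higher and 2 lower with the M-MDSC supernatant and 12 were higher and 2 lower with the G-MDSC supernatant, and their median log2 fold changes were 0.017 and 0.025. Among all genes tested, 2.83% were higher and 1.95% lower with the M-MDSC supernatant, and 3.10% and 2.46% with the G-MDSC supernatant. TGF-β1 itself had 10 of the 87 higher and 24 lower than untreated, beside 16.1% and 17.9% of all genes. Between the supernatants 0 passed by edgeR in either direction, with 8 higher and 1 lower at an unadjusted p under 0.05. DESeq2 called 2 higher and 0 lower there, and limma 1 higher and 0 lower.

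Downstream of the receptors, 2 of 15 tested adaptors, kinases, factors and outputs rose with each supernatant. Irf7, the interferon regulatory factor of the late response, went from 0.961 ± 0.217 FPKM with TGF-β1 to 22.8 ± 0.469 with the M-MDSC supernatant (log2 fold change 4.53) and 13.7 ± 0.66 with the G-MDSC supernatant (3.79), having been at 3.52 ± 0.499 untreated. Cxcl10, a chemokine gene induced by interferon, rose by 1.50 and 1.20 on the log2 scale but read only 1.48 to 1.73 and 1.18 to 1.45 FPKM, under the untreated 3.67 ± 0.209. The constitutive parts did not pass: Irf3 had log2 fold changes of -0.011 and -0.057, and Tbk1 of 0.037 and 0.087. Ifnb1 and Ifna4, genes of type I interferon itself, had 0 counts in all 12 libraries. If each count is a separate fragment, that allows up to 3 counts a library, or 0.0355 to 0.0406 CPM. Of the nonzero counts up to 12, 44.3% were multiples of 4, so the true limit may be higher. Interferon protein in the added medium was not measured here.

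Of 16 other nucleic acid sensors tested, 5 rose with each supernatant. Ddx60, a helicase that aids RIG-I, rose by 4.27 (M-MDSC) and 3.89 (G-MDSC) on the log2 scale. It reached 1 FPKM only in the supernatant groups (at most 0.662 untreated and 0.150 with TGF-β1), so it entered the test through the groups where it was high. Oasl2, of the oligoadenylate synthetase-like family, rose by 3.65 and 3.66, and the DNA-binding PYHIN genes Ifi203 and Ifi204 by 2.79 and 2.43 and by 1.71 and 1.45. The fifth, Zc3hav1, the zinc finger antiviral protein, rose by 1.09 and 0.93. Hmgb1, a nuclear DNA-binding protein, was lower with the G-MDSC supernatant (log2 fold change -1.64, adjusted p = 0.00782) and did not pass with the M-MDSC supernatant (-0.92).

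In the remaining lists the counts called with the M-MDSC and the G-MDSC supernatant are again read beside the 2.83% and 3.10% of all genes that were higher. Among 17 regulators of RIG-I, MDA5 and MAVS, 1 rose with each supernatant, Nlrc5, by 1.21 and 0.99, a gene better known as the transactivator of MHC class I. Nlrc5 read 0.956 to 1.12 FPKM untreated, at most 0.637 with TGF-β1 and 1.23 to 1.28 with the M-MDSC supernatant. Without the supernatant groups it would not have reached 1 FPKM in 3 libraries, so it entered the test through groups where it was high. Among 14 regulators of STING and cGAS, Usp18, which removes ISG15 and restrains interferon receptor signalling, rose by 6.04 and 5.48, from 1.08 ± 0.347 FPKM to 72.7 ± 1.59 and 49.3 ± 1.64. Enpp1, which degrades the product of cGAS, was lower with the M-MDSC supernatant (log2 fold change -0.29, adjusted p = 0.017). Of 11 nucleases and editing genes, 3 were higher with the M-MDSC and 2 with the G-MDSC supernatant. Adar, the RNA editing enzyme that marks self RNA, rose by 1.15 and 1.01, and Pnpt1, a mitochondrial RNA nuclease, by 1.07 and 0.94. Samhd1, which limits deoxynucleotides, rose by 0.23 with the M-MDSC supernatant (adjusted p = 0.0466). Of 14 partners of PKR and ZBP1, Mlkl, the effector of necroptosis, rose by 0.75 and 0.60, and Eif2ak3, a related kinase of the stress of the endoplasmic reticulum, was lower, with log2 fold changes of -0.30 and -0.29.

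**Figure D4:**
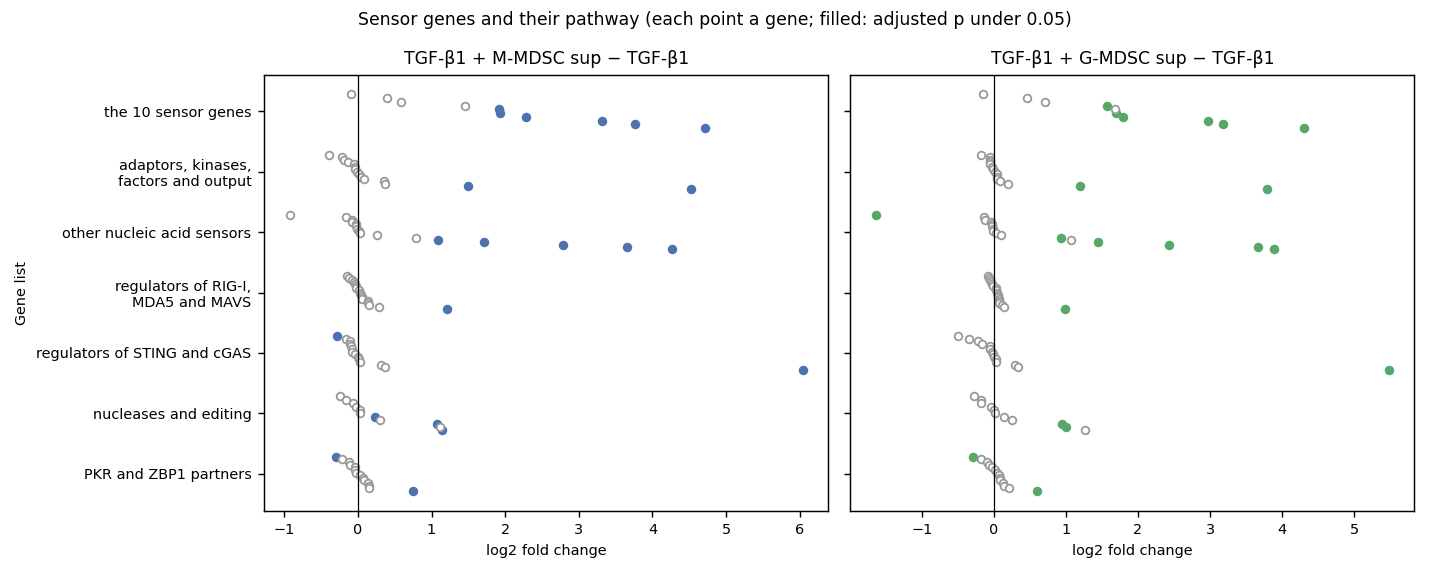
Log2 fold change against TGF-β1 alone of the 10 sensor genes and of the tested genes in the 6 pathway lists, with the M-MDSC supernatant on the left and the G-MDSC supernatant on the right; filled points passed an adjusted p under 0.05. The 6 filled sensor genes lie at 1.91 or above on the left and 1.57 or above on the right, while the lists centre near 0 with single genes far out, led by Usp18 at 6.04 and 5.48.

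Across the 12 libraries, the 6 sensors that rose varied together. Their pairwise Pearson correlations of log2 CPM lay between 0.931 and 0.998 over 15 pairs, which describes 4 group means as much as the libraries and is no test. Mavs correlated with them at -0.572 to -0.3. Outside the members, the 5 genes most like the mean profile of the 10 were Ifi204 (r = 0.979), Tap2 (0.976), Gbp7 (0.974), Trim21 (0.973) and Mov10 (0.973), over the same 12 libraries, whose points share their library depth and group. Of these, Gbp7 was the lowest, at 0.706 ± 0.0692 FPKM untreated and 0.0894 ± 0.0157 with TGF-β1, so that it entered the test through the supernatant groups, where it read 2.17 ± 0.337 with the M-MDSC and 1.38 ± 0.259 with the G-MDSC supernatant.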

How the data were processed

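RNA was sequenced from 12 poly(A) libraries of mouse MSCs, 3 in each of 4 groups, which were assigned from the library titles. Per the study's methods, read quality was checked (fastp), and HISAT2 alignment to GRCm38 was followed by StringTie assembly. The submitters' processing notes name cutadapt 1.9, HISAT2 2.0.4, StringTie 1.3.4d, edgeR and DESeq2. The deposited table holds raw counts per gene and library. The tool that counted the reads is not given in the sources used here. Of the nonzero counts up to 12, 44.3% were multiples of 4, so an alternative divided all counts by 4. The table also holds FPKM, which the authors computed from exon fragments, mapped reads and exon length, with 0.0001 standing for a count of 0.

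A gene was tested where it reached 1 FPKM in 3 or more libraries. Scaling used trimmed means of M-values (factors 0.978 to 1.03). One edgeR model (version 4.0.16, R 4.3.3) held the 4 groups, with a two-sided quasi-likelihood F test. Benjamini-Hochberg adjustment ran over all 12016 genes, and a gene was called at an adjusted p under 0.05. Fold changes are from that fit, and levels are FPKM. Alternatives were other scalings and filters, DESeq2 1.42.0, limma 3.58.1 on log2(FPKM + 1) or log2(FPKM + 0.1), only the 2 groups compared, a replicate block, and each library left out. The scripts were tested on simulated data first.

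Older symbols were matched through RefSeq synonyms, and sequences come from RefSeq (GRCm38.p6). Protein sequences were not used here. The named genes were the 10 members, the pathway genes with the largest changes among those called with either supernatant (up to 4 a list) with Ifnb1, Irf3, Tbk1 and Irf7, and the 5 genes most like the members. Zc3hav1, Hmgb1, Ifna4, the pseudogene Gm6548 and single genes of the cell type marker lists are named beyond this rule, after their values were seen. Members and lists were chosen with earlier results of these data known. Python 3.11.15 with pandas 2.3.3 and matplotlib 3.10.9 made the tables and figures.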

Additional observations from a re-analysis of the deposited data

Results flagged for a closer look

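The levels of Ddx58 with the 2 supernatants differed in the direct test of the difference between them. Relative to the same TGF-β1 treatment, the M-MDSC supernatant gave a log2 level 0.352 above that of the G-MDSC supernatant (edgeR quasi-likelihood, adjusted p = 0.0204), and it was higher in 3 of 3 M-MDSC libraries than in any G-MDSC library. The call was lost without G-MDSC replicate 1 (adjusted p = 0.131) or 2 (0.113) and without M-MDSC replicate 1 (0.058) or 2 (0.0727), and the study's own fold rule called 0 members. Both effects are measured against the same TGF-β1 libraries. Hepatocyte markers also differed between these groups, summing to 0.110, 0.189 and 52.1 FPKM in the M-MDSC and 55.1 to 61.3 in the G-MDSC libraries. Kidney markers summed to 34.6, 44.0 and 109 against 72.3 to 84.5 FPKM. The part of either in the difference was not tested. Single libraries were not tested as outliers of their group, at 3 libraries a group.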

How the results depend on the processing

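Of 960 recomputed fold changes of single members over 16 alternatives a comparison, 928 kept their direction and side of the threshold, 9 lost the call, 11 gained it and 12 changed sign. For the 6 sensors against TGF-β1 alone, all 96 alternatives kept direction and call with each supernatant. The sizes varied, most for the genes under 1 FPKM with TGF-β1 alone. With the M-MDSC supernatant the log2 fold changes ran from 3.32 to 4.78 for Zbp1, 2.58 to 3.80 for Dhx58 and 1.13 to 2.43 for Tlr3. Under the study's own rule (fold change above 2 or below 0.5, unadjusted p under 0.05) the members lower with TGF-β1 were 5 in place of 8, those lower against untreated MSCs were 0 with either supernatant, and those higher with the M-MDSC than the G-MDSC supernatant were 0. The last count was 4 with DESeq2 (Ddx58, Ifih1, Dhx58 and Zbp1), 2 with limma on log2(FPKM + 1), and 0 to 1 when single libraries were left out. Replicate numbers did not pair the libraries: residuals of 18 same-numbered pairs had a mean correlation of 0.00062 (-0.108 to 0.0828). With the replicate as a block, 0 members were higher with the M-MDSC than the G-MDSC supernatant (Ddx58 adjusted p = 0.0537). It changed no other call of a member.

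Signs changed only for Trim25, Cgas and Sting1, none of them called in those comparisons. Against untreated MSCs, the M-MDSC value of Trim25 was -0.082 and -0.097 with limma (pseudocounts 1 and 0.1), and -0.55 to 0.37 when libraries were left out. Cgas there was -0.012 with limma (pseudocount 0.1) and -0.11 to 0.43. The change of Cgas with TGF-β1 ran from -0.46 to 0.011, and the M-MDSC minus G-MDSC difference from -0.89 to 0.032 for Trim25 and from -0.031 to 0.27 for Sting1. Trim25 passed with TGF-β1 in limma (adjusted p = 0.0499 and 0.0441) and with 2 groups fitted (0.0352), and with the G-MDSC supernatant in DESeq2 (0.0448). Tlr3 passed between the G-MDSC supernatant and untreated MSCs in DESeq2 (0.0278) and without G-MDSC replicate 3 (0.0178). The causes were not tested. Each library held at least 73977669 counts. How much of the SE of each member came from depth and how much from the spread between libraries was not tested.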
